A study of Mus musculus with 6 samples.

Results

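The genes described here encode enzymes that attach ubiquitin to proteins or take it off. They were chosen by symbol, as the genes named Ube2, Ubr, Fbxl, Fbxo, Fbxw, Cul or Usp with a number or letter of the family, Usp18 left out. This gave 88 of 11138 named genes on the arrays. By role, 24 encode E2 conjugating enzymes or their catalytically inactive variants. A further 7 encode cullins, 28 encode F-box proteins, 3 encode ligases of the Ubr family and 25 encode ubiquitin-specific proteases. Ube2cbp, an E3-type protein that binds the E2 enzyme Ube2c, is counted apart from these 24.

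RNA came from sorted endothelial cells of mice exposed to tobacco smoke and of control mice, in 2-colour comparisons on 6 arrays. For 1 week of smoke there were 3 arrays with control RNA, including 1 dye reversal. For 6 weeks of smoke there were 2 arrays with RNA of 1-week controls, including 1 dye reversal, and 1 array with RNA of 6-week controls. No strain, age, sex, tissue, dose of smoke or treatment of the controls is given, and the control of the 1-week arrays has no stated week. The labels do not say whether arrays of a group came from separate animals, so the p-values measure only the spread between these arrays, which may be technical. The pair of arrays against 1-week control was averaged as a technical dye swap, which leaves 3 replicates at 1 week and 2 at 6 weeks. Each SE is limma's, from 1 spread per gene that is pooled over both exposure times and moderated over the tests of the fit. So n counts the replicates behind a mean, and the SE is not the spread of that time alone.

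Values are log2 ratios as deposited, centred on the median of each array and averaged over the spots of a gene. Every title names smoke first and the smoke sample is listed as channel 1 on all 6 arrays, so a positive ratio is read as likely higher after smoke. The numerator is not stated, and neither is whether ratios of the dye-reversed arrays were turned before deposit. Signs are therefore given as deposited, and ranks hold for these signs. Values with the reversed arrays turned are set beside the genes with an unadjusted p under 0.05 and beside counts of signs. A ratio carries no level, so nothing is said of how abundant a transcript was, and in RNA from a sorted population a change in the cells' make-up and a change in RNA per cell cannot be told apart.

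Ubiquitin is activated by an E1 enzyme, handed to an E2 conjugating enzyme and placed on a target with the help of an E3 ligase, which chooses the target. Cullins are the scaffolds of the largest class of E3 ligases, and F-box proteins are the exchangeable target receptors of the cullin 1 ligases. Ubiquitin-specific proteases, the Usp family, remove the mark again. In endothelium the system is known for controlling the turnover of hypoxia-inducible factor, of NF-kB inhibitors and of junction and growth factor receptors.

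Paired spots of one gene often differed on these arrays. Of the 88 genes, 79 had 2 spots, 8 had 4 and Ube2j2 had 6. All spots of a gene lay within 1 log2 unit of each other on every array for 37 of the 88 genes (42.0%), against 50.5% of all named genes, and 22 of the 88 had spots 2 or more units apart on at least 1 array. The correlation of paired spots of these genes ranged over the arrays from r = 0.056 to r = 0.584, where all named genes gave 0.211 to 0.415. These are descriptions across spots of one array each. A second fit was therefore made on the 5625 named genes with agreeing spots, which include those 37.

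After 1 week of smoke the E2 enzymes were the group whose ratios kept their sign most often from array to array. Of 24 E2 genes, 17 had 1 sign on all 3 arrays (70.8%), 7 positive and 10 negative, while 30.5% of all named genes did. The figures for the other roles were 10 of 25 proteases (40.0%), 9 of 28 F-box genes (32.1%), 2 of 7 cullins and 1 of 3 Ubr ligases. The E2 count was 20 of 24 without the dye-reversed array, where 57.2% of named genes had 1 sign on the remaining 2 arrays. It was 3 of 24 with the dye-reversed array turned (26.0% of named genes), and 6 of 24 when each array used the spot nearest 0 (26.1% of named genes). The count thus changed with the sign of that array and with the way spots were combined. Among genes with agreeing spots and signs as deposited, 6 of 8 E2 genes had 1 sign (75%), beside 34.4% of 5625 named genes. These counts are descriptions, and the difference between E2 genes and other genes was not tested.

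After 1 week none of the 88 genes had an adjusted p under 0.05 in limma (Benjamini-Hochberg, 19242 tests), nor did any other feature (0%). At an unadjusted p under 0.05, 9 of 88 genes (10.2%) were found, 6 positive and 3 negative, against 6.65% of all tests (3.53% positive and 3.12% negative). Of the named genes alone, 7.49% had such a p. The smallest adjusted p of the group was 0.387. In the fit on agreeing spots 0 of 37 passed, with 7 at an unadjusted p under 0.05, where 1.81% of 5625 genes passed and 14.1% had such a p. The median over the 88 genes was -0.05, beside -0.01 for all named genes, and 15 genes (17.0%) had a mean beyond 0.5 in size, beside 12.9% of named genes. With the dye-reversed arrays turned, 1 of 88 genes (1.14%) had an unadjusted p under 0.05, against 3.81% of all tests. That gene was Usp24, which is not among the 9.

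**Figure D1:**
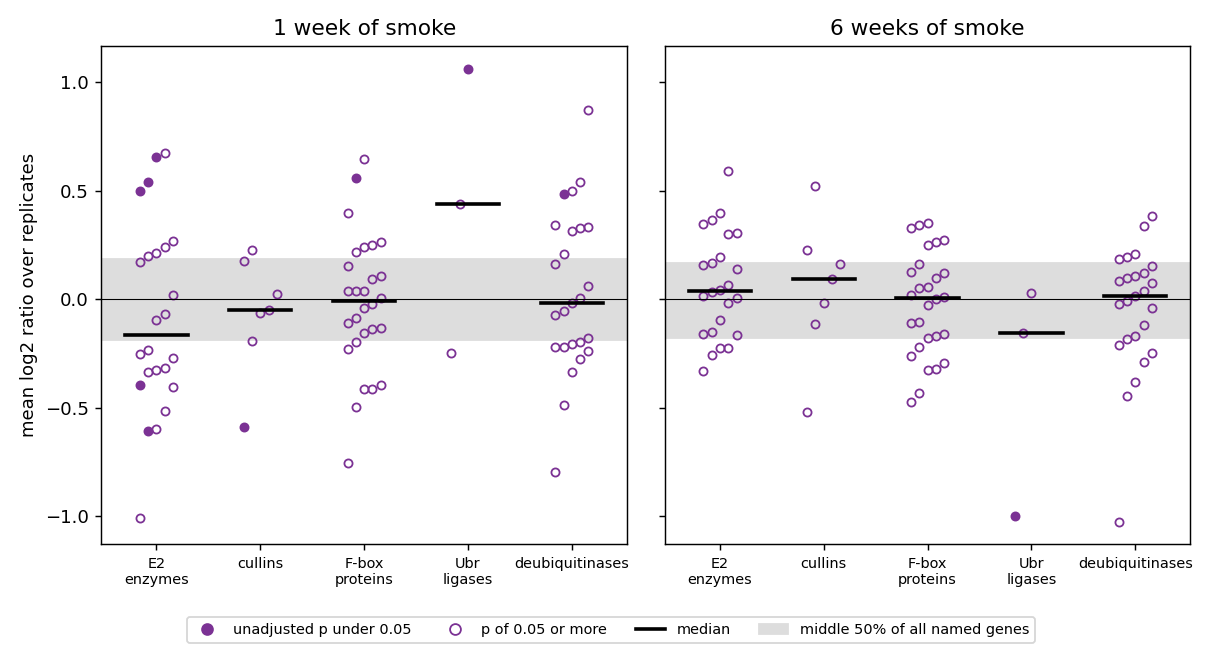
Mean log2 ratio of each gene over replicates after 1 week (3 replicates) and 6 weeks (2 replicates), by role; each circle is 1 gene, filled where limma's unadjusted p is under 0.05, with a bar at the median of the role and a grey band between the quartiles of all named genes. The E2 genes at 1 week have their median at -0.17, with few genes close to 0, and at 6 weeks at 0.04.

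Ube2e1, Ube2h and Ube2v2 were the E2 genes with positive 1-week means and an unadjusted p under 0.05. Ube2e1, an E2 enzyme that works with many RING ligases, stood at 1.07, 0.40 and 0.50 on the 1-week arrays, the first being the dye reversal. At 6 weeks it stood at 0.40, at 0.12 on the dye reversal and at 0.92 against 6-week control. All 6 arrays were positive, and the values of the 2 times overlapped. The mean was 0.66 ± 0.22 (SE, n = 3) after 1 week (limma, unadjusted p = 0.0296, adjusted p = 0.735). Its 2 spots never differed by more than 0.15. With both dye-reversed arrays turned, the 1-week mean was -0.06, the one case among the 9 genes in which the sign changed.

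Ube2h, which serves the multi-subunit CTLH ligase and is abundant in erythroid cells, gave 0.50, 0.44 and 0.68 after 1 week. The 6-week arrays were at 0.01, 0.06 and 0.24. Each 1-week value was above each 6-week value, and all 6 were positive. Its 1-week mean was 0.54 ± 0.15 (SE, n = 3; limma, unadjusted p = 0.0147, adjusted p = 0.663), and the adjusted p was 0.118 among genes with agreeing spots, the smallest of the group there. The spots differed by at most 0.16. With the dye reversal turned the mean was 0.21 (limma, unadjusted p = 0.478).

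Ube2v2 is an E2 variant without a catalytic cysteine that pairs with Ube2n to build chains used in DNA damage tolerance. The 1-week arrays gave 0.50, 0.42 and 0.57, and the 6-week arrays 0.56, 0.33 on the dye reversal and 0.24. All values were positive and those of the 2 times overlapped. The mean was 0.50 ± 0.15 (SE, n = 3) after 1 week (limma, unadjusted p = 0.018, adjusted p = 0.677). Its spots differed by up to 1.27 on an array, so it was not among the genes with agreeing spots. The mean with the dye reversal turned was 0.17 (limma, unadjusted p = 0.541).

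The negative end of the E2 genes at 1 week held Ube2f, Ube2g2 and Ube2t. Ube2f conjugates not ubiquitin but NEDD8, the modifier that activates cullins. Its ratios were -0.51, -0.29 and -1.04 after 1 week and -0.03, -0.07 and 0.17 after 6 weeks, so that the times did not overlap. The 1-week mean was -0.61 ± 0.20 (SE, n = 3; limma, unadjusted p = 0.0259, adjusted p = 0.718), and -0.27 with the dye reversal turned (limma, unadjusted p = 0.417).

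Ube2g2, an E2 enzyme of endoplasmic reticulum-associated degradation, had different values from its 2 probes. The probe made from a RefSeq transcript entry was negative on all 6 arrays, from -1.05 to -0.33 as the mean of its 2 spots, with means of -0.86 after 1 week and -0.70 after 6 weeks. The probe made from a GenBank entry lay between -0.17 and 0.42, with means of 0.07 and 0.25. The 2 sets of means do not overlap. Averaged over both, the 1-week mean was -0.40 ± 0.15 (SE, n = 3; limma, unadjusted p = 0.0447, adjusted p = 0.739), a value that stands for neither probe. Turning the dye reversal gave -0.04 (limma, unadjusted p = 0.876).

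**Figure D2:**
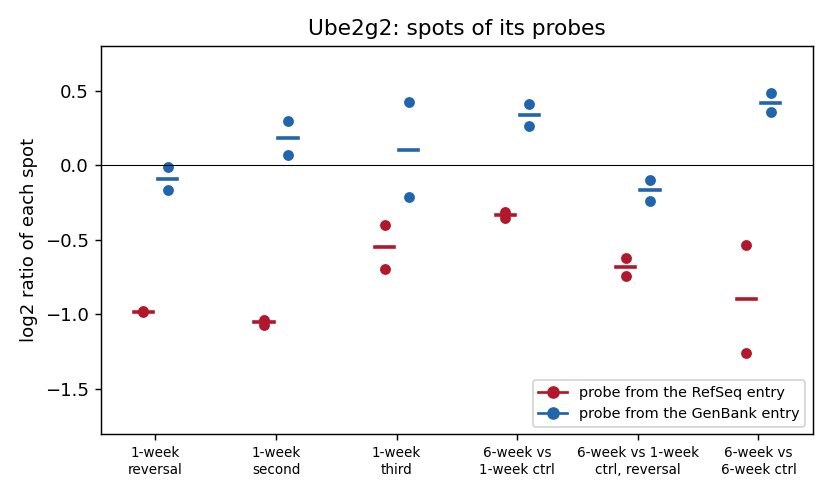
Log2 ratio of each of the 4 spots of Ube2g2 on the 6 arrays (x axis), coloured by probe, with bars at the mean of each probe's 2 spots. The bars of the RefSeq entry's probe lie between -1.05 and -0.33 and those of the GenBank entry's probe between -0.17 and 0.42.

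Ube2t, which monoubiquitinates Fanconi anaemia proteins, had a 1-week mean of -1.01 ± 0.43 (SE, n = 3), the lowest of the 88 genes with signs as deposited. With the dye reversal turned it was -0.72 and no longer the lowest. Genes below it then included Usp24 at -0.90, Fbxo36 at -0.80 and Ube2n at -0.74. The third array was at -2.32 and the others at -0.43 and -0.27, and the unadjusted p in limma was 0.0603. Without the third array the 1-week mean was -0.35. Ube2j1, a membrane-anchored E2 enzyme of the endoplasmic reticulum, was at -0.27, -0.20 and -0.48 after 1 week and at 0.25, 0.01 and 0.20 after 6 weeks. Ube2l6, which conjugates the interferon-induced modifier ISG15, had means of -0.10 after 1 week and 0.36 after 6 weeks. The spots of Ube2l6 had opposite signs on every 6-week array, with 1.74 and -0.43 against 6-week control.

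Among ligases, Ubr3 had the largest 1-week mean of the 88 genes with signs as deposited. It is a RING ligase of the family of Ubr1 and Ubr2, which bind destabilising amino-terminal residues, but does not itself bind these classical degrons. Ubr3 stood at 0.98, 1.02 and 1.18 after 1 week, and at 0.19, -0.34 on the dye reversal and 0.13 after 6 weeks. The 1-week arrays were all far above the 6-week arrays. The 1-week mean was 1.06 ± 0.15 (SE, n = 3), a ratio of 2.09 (limma, unadjusted p = 0.000663, adjusted p = 0.387). Single spots were less even than the means: on the second 1-week array they were 0.14 and 1.90. Leaving out any 1 array kept the 1-week mean between 1.00 and 1.10, and turning both dye reversals gave 0.41 (unadjusted p = 0.402), below Usp8, Fbxo24 and Cul4a.

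Ubr2 is the one gene of the group with an unadjusted p under 0.05 after 6 weeks. The 6-week arrays were at -1.06, -0.86 on the dye reversal and -1.03, and the 1-week arrays at 0.34, -0.23 and 1.20. No 1-week array was as low as any 6-week array. The 6-week mean was -0.998 ± 0.355 (SE, n = 2; limma, unadjusted p = 0.0344, adjusted p = 1). Its spots differed by 3.41 on the third 1-week array (2.90 and -0.51) and by 1.72 on the 6-week dye reversal (0.00 and -1.72). Turning that array gave a 6-week mean of -0.57 (limma, unadjusted p = 0.219). Ubr1 had means of -0.25 and -0.16 with no steady sign.

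Of the 7 cullins, Cul7 alone had an unadjusted p under 0.05, after 1 week. Cul7 is the scaffold of a ligase with Fbxw8 that is linked to growth and to the microtubule cytoskeleton. The 1-week arrays were at -0.48, -0.56 and -0.74, and the 6-week arrays at 0.98, -0.43 on the dye reversal and -0.50. One value of 6 was positive, and it came from the array whose dye swap was negative. The 1-week mean was -0.59 ± 0.20 (SE, n = 3; limma, unadjusted p = 0.0301, adjusted p = 0.735), and -0.27 with the dye reversal turned (limma, unadjusted p = 0.461). Cul3, the scaffold for BTB-domain receptors such as Keap1, had means of 0.18 and 0.16. The scaffolds of Ddb1-linked ligases, Cul4a and Cul4b, marked the ends of the cullins at 6 weeks with -0.52 ± 0.33 and 0.52 ± 0.31 (SE, n = 2), and neither had an unadjusted p under 0.05. With the dye reversal turned they were at -0.76 and 0.01.

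The 28 F-box genes were spread about 0 at both times, with medians of -0.01 and 0.01 and 14 positive means of 28 after 1 week. Fbxo25, a relative of the muscle atrophy ligase Fbxo32, was the F-box gene with an unadjusted p under 0.05. Its ratios were 0.40, 0.64 and 0.64 after 1 week and 0.97, -0.30 on the dye reversal and 0.21 after 6 weeks. The 1-week arrays were alike and the 6-week arrays scattered on both sides. The 1-week mean was 0.56 ± 0.15 (SE, n = 3; limma, unadjusted p = 0.0125, adjusted p = 0.648), and 0.29 with the dye reversal turned (limma, unadjusted p = 0.317). The 5 Fbxw genes had negative 1-week means, from -0.41 for Fbxw27 to -0.02 for Fbxw4, as did 5689 of 11138 named genes, and none had an unadjusted p under 0.05. With the dye reversal turned only Fbxw27 stayed negative of these 5, at -0.41, and the others lay between 0.03 and 0.26. Fbxo31, which directs cyclin D1 for destruction after DNA damage, had a 1-week mean of -0.42 ± 0.18 (SE, n = 3). That of Fbxo8 was -0.50 ± 0.21 (SE, n = 3). With the dye reversal turned the 1-week means were 0.08 for Fbxo31 and 0.10 for Fbxo8. Spots differed by up to 2.04 for Fbxo31 and 1.15 for Fbxo8 on an array.

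Of the 25 proteases, Usp14 had an unadjusted p under 0.05 after 1 week, and Usp24 had the lowest means as deposited. Usp14 sits on the proteasome and trims ubiquitin from arriving substrates. It gave 0.16, 0.59 and 0.70 after 1 week and 0.29, 0.08 and 0.19 after 6 weeks. All 6 values were positive, and both dye reversals had the lowest value of their time. The 1-week mean was 0.48 ± 0.17 (SE, n = 3; limma, unadjusted p = 0.0359, adjusted p = 0.739), with spots within 0.44. It was 0.38 with the dye reversal turned (limma, unadjusted p = 0.144).

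Usp24, a very large protease with the DNA damage sensor Ddb2 among its known substrates, had nearly equal ratios on the 4 arrays without dye reversal. They were -1.32 and -1.23 after 1 week and -1.24 and -1.26 after 6 weeks, a mean of -1.26. The dye reversals were at 0.16 after 1 week and -0.33 after 6 weeks. So the arrays divided by dye orientation and not by time. Over both times the mean was -0.91 ± 0.26 (SE, 5 replicates; limma, unadjusted p = 0.0162, adjusted p = 0.0874 among genes with agreeing spots). Usp24 passed there under 3 alternatives in limma. The adjusted p was 0.0141 on the 4 arrays without dye reversal, 0.0138 with a dye term and 0.00653 without the 1-week dye reversal. The shares of all genes with agreeing spots that passed under these alternatives are not given here. The mean with a dye term was -0.68 ± 0.12 (SE), which is the middle between both orientations. Over all alternatives the unadjusted p of that mean ran from 0.000672 to 0.117, the highest without the array against 6-week control.

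**Figure D3:**
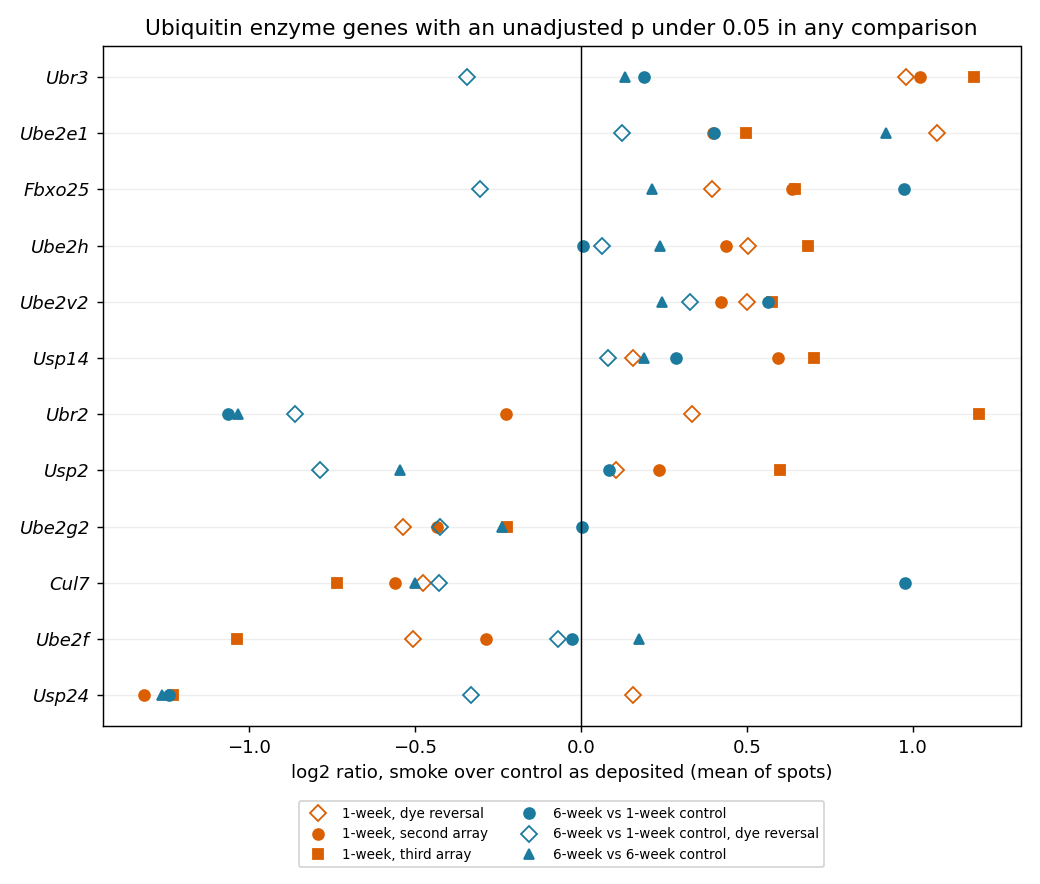
Log2 ratio on each of the 6 arrays for the 12 genes with an unadjusted p under 0.05 in at least 1 comparison; colours mark exposure time and open diamonds the dye reversals. Ube2e1, Ube2h, Ube2v2 and Usp14 are above 0 on all arrays, Ubr3 separates the 2 times, and the 4 filled points of Usp24 lie between -1.32 and -1.23.

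Over both exposure times, 7 of 88 genes (7.95%) had an unadjusted p under 0.05, against 6.31% of all tests and 7.44% of named genes. They were Ubr3, Ube2v2, Ube2e1, Fbxo25 and Ube2h with positive means and Usp24 and Ube2g2 with negative ones. None passed adjustment in limma over all tests, as was so for every feature (0%), and 0 of 37 passed among genes with agreeing spots, where 1.83% did. A single sign on all 6 arrays was found for 7 genes (7.95%), near the 6.67% of all named genes. With both dye reversals turned it was found for 4 genes (4.55%) and 6.36% of named genes. With signs as deposited the positive ones were Fbxo30, Ube2e1, Ube2g1, Ube2h, Ube2v2 and Usp14, and the negative one was Usp11. Usp11, a nuclear protease tied to DNA repair, had a mean over both times of -0.25 ± 0.12 (SE). Its spots were -0.99 and 0.33 on the array against 6-week control.

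After 6 weeks, 1 of 88 genes (1.14%), Ubr2, had an unadjusted p under 0.05, against 4.12% of all tests and 4.03% of named genes. None passed adjustment, in this group or among all tests (0%) in limma, and 0 of 37 passed with agreeing spots, where 0.213% did. One sign on all 3 arrays was found for 20 genes (22.7%), beside 24.1% of named genes, and with the dye reversal turned for 19 (21.6%), beside 24.7%. Means beyond 0.5 in size were seen in 5 genes (5.68%), beside 9.83% of named genes. As deposited, the largest positive mean was 0.59 ± 0.27 (SE, n = 2), for Ube2e1, and the lowest was -1.03 ± 0.41 (SE, n = 2), for Usp24. Turned, Ube2e1 was still highest at 0.53, and Usp26 at -0.90 was below Usp24 at -0.86.

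The difference between the times, 6 weeks minus 1 week, had an unadjusted p under 0.05 in 3.55% of all tests and 3.38% of named genes. In the group it did so for 3 genes (3.41%), all with lower ratios after 6 weeks. These were Ubr3 at -1.03 ± 0.24, Ubr2 at -1.43 ± 0.46 and Usp2 at -0.76 ± 0.27 (differences ± SE), with limma's unadjusted p of 0.00637, 0.0234 and 0.0345. The adjusted p was 0.951 or more, no feature passed among all tests (0%), and none did among genes with agreeing spots (0%). Usp2, a protease under circadian control that spares Mdm2 and cyclin D1, was at 0.11, 0.24 and 0.60 after 1 week. Its 6-week arrays were at 0.08, -0.79 on the dye reversal and -0.55. Its spots were 1.26 and -0.06 on the third 1-week array and -0.30 and -1.28 on the 6-week dye reversal. The lowest 1-week value and the highest 6-week value nearly met. The arrays of the times did not overlap for 17 of 88 genes (19.3%), against 10.7% of named genes, 7 of them higher and 10 lower after 6 weeks. With the 6-week dye reversal turned this held for 10 genes (11.4%) and 10.7% of named genes, and with both turned for 2 genes (2.27%) and 6.53%. Turning the 6-week dye reversal left Ubr3 at -0.86 (unadjusted p = 0.0136), Ubr2 at -1.004 (unadjusted p = 0.111) and Usp2 at -0.37 (unadjusted p = 0.376). With both turned Ubr3 was at -0.21 (unadjusted p = 0.780). The control of the 6-week arrays differed between them, so that time of exposure and week of control cannot be told apart.

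For several genes the ratios as deposited divided by the dye orientation of the array. The cause was not tested. Ube2n, the E2 enzyme of NF-kB and DNA repair signalling that partners Ube2v2, was at 2.12 and 1.52 on the dye reversals. On the other 4 arrays it was between -0.15 and 0.10. Its 2 spots never differed by more than 0.12, so both spots showed the split. Usp26, an X-linked protease known from testis, was at 1.86 and 2.21 on the dye reversals and between -0.53 and -0.17 elsewhere. In the fit with a dye term, whose coefficient was read after seeing the data, the unreversed minus the reversed arrays came to -1.86 ± 0.28 for Ube2n and -2.34 ± 0.26 for Usp26 (SE). Among 37 genes with agreeing spots, 1 passed for orientation, Ube2n, with limma's adjusted p = 0.011, and 1.05% of 5625 genes did. None passed among all tests (0%), where 5 of 88 had an unadjusted p under 0.05, namely Ube2n, Usp26, Usp24, Fbxo36 and Cul5, and 5.87% of all tests did. With that term in the fit, a mean is the middle between both orientations. For Ube2n it was 0.98 after 1 week (limma, adjusted p = 0.0191) among genes with agreeing spots. Over both times it was 0.89 (limma, adjusted p = 0.0056). These values stand for neither orientation, and without the dye reversal the 1-week mean of Ube2n was -0.05. The share of the 5625 genes that passed in that fit is not given here.

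**Figure D4:**
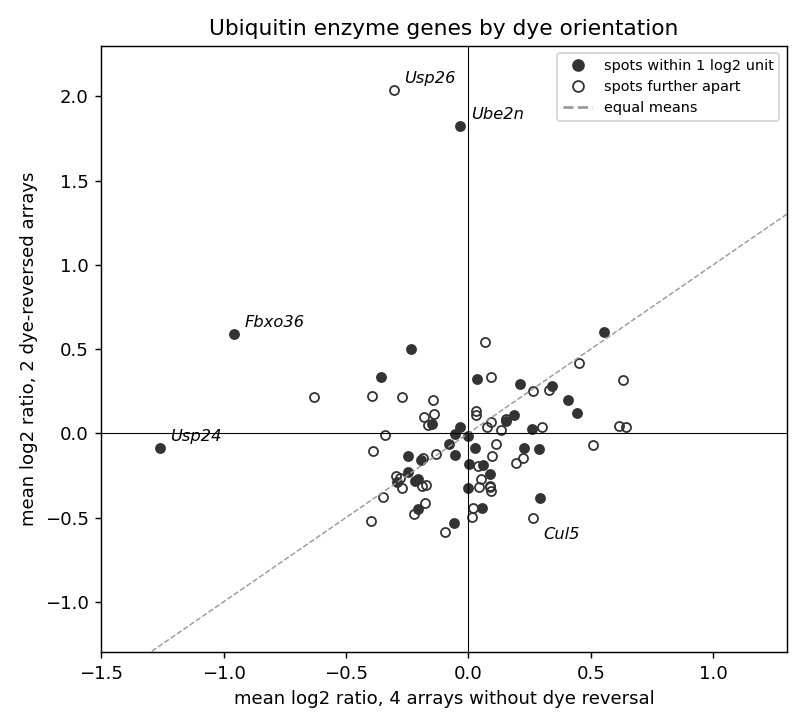
Mean log2 ratio on the 2 dye-reversed arrays (y axis) against the mean on the 4 other arrays (x axis) for the 88 genes; filled circles have spots within 1 log2 unit of each other on every array, and the dashed line marks equal means. Ube2n and Usp26 stand near 2 on the y axis and near 0 on the x axis, and Usp24 stands at -1.26 on the x axis.

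Correlations between arrays were mixed. Across the 37 genes with agreeing spots, the 2 dye reversals correlated at r = 0.653, and at r = 0.400 without Ube2n. Between both unreversed 1-week arrays r was 0.471, and between the 6-week array against 1-week control and its own dye reversal r was -0.198. The array against 6-week control, itself unreversed, gave r = 0.249 with the 1-week dye reversal and 0.111 with the unreversed 6-week array against 1-week control. Over all named genes with agreeing spots, r was 0.429 between the dye reversals and 0.387 between both unreversed 1-week arrays. These correlations run across genes, which are not independent replicates, and the part of dye in them was not tested.

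For some genes 1 spot lay far from the other. Usp8, which sorts receptors at endosomes, had the largest positive protease mean after 1 week, 0.87 ± 0.45 (SE, n = 3). On the second array its spots were 4.15 and 0.38, and its array means elsewhere lay between -0.10 and 0.18. Fbxo24 had the largest F-box mean, 0.64 ± 0.46 (SE, n = 3), with spots at 4.43 and -0.25 on that array. Ube2r2, an E2 enzyme of cullin 1 ligases, had 1 spot at -3.57 there and the other at 0.00. Ube2cbp had spots of -4.22 and 0.81 on the second array and 4.77 and -1.56 on the third. None of these 4 genes had an unadjusted p under 0.05 at either time.

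**Figure D5:**
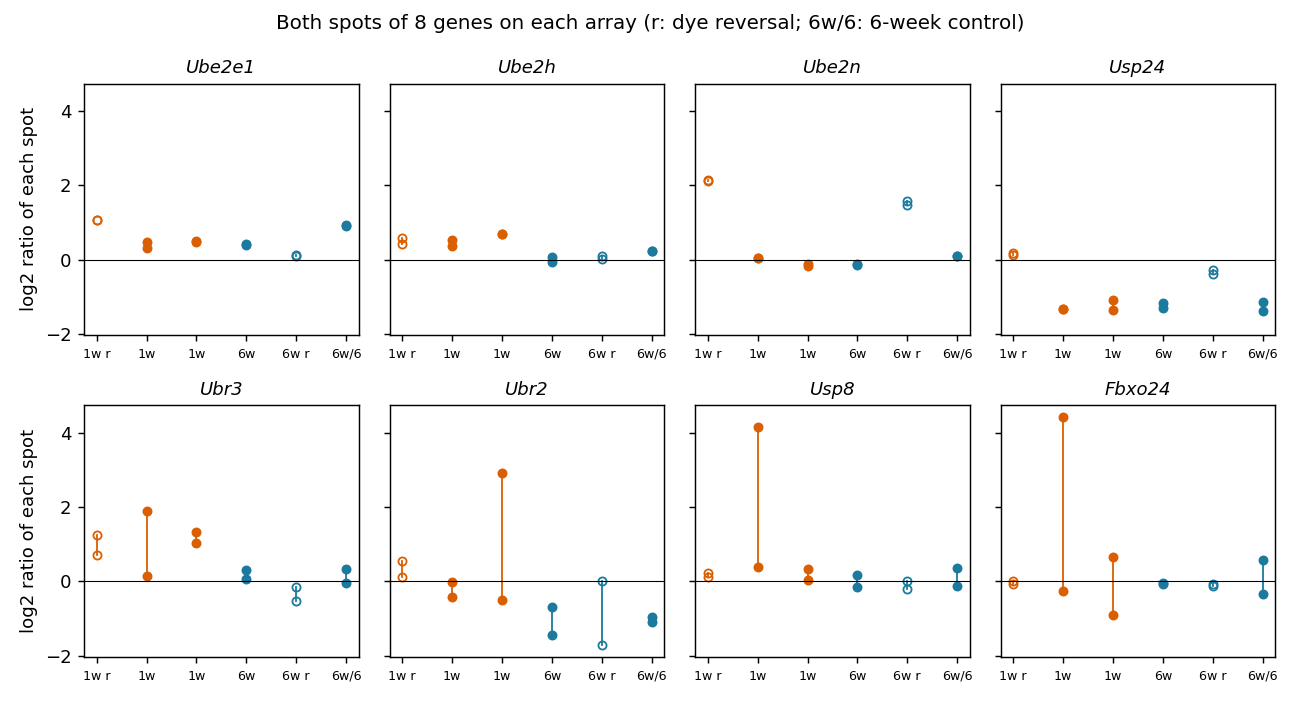
Log2 ratio of the 2 spots of 8 genes on each array, joined by a line, with open circles for dye reversals (1w and 6w give the weeks of smoke). The spots of Ube2e1, Ube2h, Ube2n and Usp24 stay close together on every array, while Usp8 and Fbxo24 have 1 spot above 4 on the second 1-week array.

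Other genes of the pathway were read from 7 lists with 146 measured genes. Beside the 6.65% of all tests and 7.49% of named genes given before, 7 of the 146 had an unadjusted p under 0.05 after 1 week. With signs as deposited all 7 were positive, and none passed adjustment. Values of the listed genes with the dye reversals turned are not given here. They were Uba3, the catalytic subunit of the NEDD8 E1 enzyme, at 0.68 ± 0.19, Sumo3 at 0.51 ± 0.20, Rnf7, a RING subunit of cullin 5 ligases, at 0.47 ± 0.18, and Ddb2 at 0.55 ± 0.20. The others were the RBR ligase Rnf19a at 0.42 ± 0.17, Trim33 at 0.58 ± 0.20 and the endosomal protease Stambp at 0.64 ± 0.20 (means ± SE, n = 3). Uba3 was positive on all 6 arrays (0.94, 0.35, 0.76, 0.02, 0.77 and 0.09), with both dye reversals the highest of their time. The median of the 146 genes was 0.02 after 1 week and -0.05 after 6 weeks.

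By list, the count at an unadjusted p under 0.05 after 1 week was 2 of 9 for E1 enzymes and ubiquitin-like modifiers and 2 of 36 for cullin partners and the NEDD8 cycle. It was 1 of 22 for HECT and RBR ligases, 1 of 39 for RING and U-box ligases and 1 of 15 for other deubiquitinases. It was 0 of 9 for SUMO ligases and proteases and 0 of 16 for p97 and endoplasmic reticulum-associated degradation. After 6 weeks Socs3, a cullin 5 receptor induced by cytokines, had a positive mean of 0.50. Prpf19 and Ubxn2a had negative means of -0.54 and -1.32, each with an unadjusted p under 0.05. Nedd8 itself had negative ratios on all 6 arrays (means of -0.24 and -0.34) without an unadjusted p under 0.05.

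The labelled cell type could not be checked by level, because ratios give none. Of 15 endothelial markers 12 were measured, with a median ratio of -0.06 after 1 week (5 positive, 7 negative) and -0.25 after 6 weeks (4 positive, 8 negative). After 1 week 1 of them was positive and 3 negative at an unadjusted p under 0.05 in limma, beside 7.49% of all named genes. Over both times, among genes with agreeing spots, 1 endothelial marker passed adjustment with a negative mean. So did 1 fibroblast or mural and 1 hepatocyte marker with positive means, beside 1.83% of 5625 genes. The hepatocyte marker also passed after 6 weeks, beside 0.213% of those genes. Medians of 7 marker lists of other cell types lay between -0.26 (erythroid) and 0.02 (adipocyte) after 1 week and between -0.21 (erythroid) and 0.26 (hepatocyte) after 6 weeks. The part of cell make-up in the ratios of the ubiquitin genes was not tested.

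Promoters are shown for the genes with the largest positive mean (Ubr3), positive ratios on all 6 arrays (Ube2e1), the lowest ratios on unreversed arrays (Usp24) and a difference between times (Usp2). The sequences are the 250 bases before the gene start from RefSeq, build GRCm38.p6, 5′ to 3′ on the gene's strand. They lie at chr2:69896996-69897245 on the plus strand (Ubr3), chr14:18331845-18332094 on the minus strand (Ube2e1), chr4:106315963-106316212 on the plus strand (Usp24) and chr9:44084670-44084919 on the plus strand (Usp2). Capitals mark GCGTG, or CACGC where it reads on the other strand, the core of the sites bound by the aryl hydrocarbon receptor, which compounds of tobacco smoke activate.
Ubr3: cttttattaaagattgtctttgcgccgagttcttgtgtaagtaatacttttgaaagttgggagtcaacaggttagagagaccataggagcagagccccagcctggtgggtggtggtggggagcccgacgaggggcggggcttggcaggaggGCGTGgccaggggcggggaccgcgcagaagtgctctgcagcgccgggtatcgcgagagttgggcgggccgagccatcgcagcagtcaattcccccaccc
Ube2e1: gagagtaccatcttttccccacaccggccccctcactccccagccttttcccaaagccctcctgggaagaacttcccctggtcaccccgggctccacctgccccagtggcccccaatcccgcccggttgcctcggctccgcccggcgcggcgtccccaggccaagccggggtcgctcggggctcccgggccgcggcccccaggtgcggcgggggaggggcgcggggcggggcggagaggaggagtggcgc
Usp24: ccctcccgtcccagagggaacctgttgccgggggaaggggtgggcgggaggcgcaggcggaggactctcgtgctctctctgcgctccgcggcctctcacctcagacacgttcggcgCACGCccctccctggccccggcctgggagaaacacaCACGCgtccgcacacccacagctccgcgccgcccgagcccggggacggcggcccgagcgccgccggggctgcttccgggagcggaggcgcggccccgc
Usp2: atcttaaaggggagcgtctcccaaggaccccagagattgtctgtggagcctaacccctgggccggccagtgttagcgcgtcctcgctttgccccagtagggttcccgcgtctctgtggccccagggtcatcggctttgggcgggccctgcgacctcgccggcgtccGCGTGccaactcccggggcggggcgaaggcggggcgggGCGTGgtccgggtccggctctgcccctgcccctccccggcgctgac
The core occurred once in the window of Ubr3, on 2 places in those of Usp24 and Usp2, and not in that of Ube2e1. RefSeq windows were matched for 67 of the 88 genes (82 windows, since some genes have several), and 43 of them (52.4%) held the core, as did 38.3% of 11173 windows of genes on the arrays and 28.2% of all 32851 windows. A match of 5 letters is a description of sequence and not a binding site.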

How the data were processed

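RNA of smoke-exposed and control mice was compared on 6 arrays of 2 colours. The deposited values are log2 ratios, 1 per spot, for 32448 spots; scanner, background correction, normalization and numerator are not given in the sources used here. GEO's platform table gave 1 symbol for 24344 spots, several for 98, and does not list 8006, and all 88 genes were matched by Entrez ID. Each array was centred on its median, and spots of a gene were averaged. Means for each time, both times and their difference were fitted with limma 3.58.1 (lmFit, eBayes) in R 4.3.3 on 5 replicates, as two-sided tests, with p-values adjusted by Benjamini-Hochberg across 19242 tests (11138 named genes and 8104 unnamed features). A second fit used 5625 named genes with all spots of a gene within 1 log2 unit on each array. The threshold was 0.05, and the few arrays limit the precision. Adjusted p-values are over all tests unless agreeing spots are named.

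Members and lists were chosen with earlier results of these data known. Genes named are those with the smallest unadjusted p and 1 sign on every array of a comparison (up to 6 of each sign), those passing with agreeing spots, the extremes of each role, and up to 2 of each pathway list. Ube2n's partners, genes with uneven spots or probes, genes divided by dye orientation and other named genes were picked with their values in view. Alternatives covered the signs of the reversed arrays, the dye swap, a dye term, centring, scaling, normalization, spots, filters, variance model, weights, threshold and each array left out. The dye coefficient and the alternatives to the counts of signs and of times that do not overlap were added after seeing the data. The script was tested on simulated data.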

Additional observations from a re-analysis of the deposited data

Results flagged for a closer look

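For 3 genes the difference between the times, 6 weeks minus 1 week, had an unadjusted p under 0.05 in limma. It was -1.03 for Ubr3 (limma, unadjusted p = 0.00637), -1.43 for Ubr2 (limma, unadjusted p = 0.0234) and -0.76 for Usp2 (limma, unadjusted p = 0.0345), each with an adjusted p of 0.951.

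A further 4 genes had one sign on every 1-week array and the other sign on every 6-week array, with signs as deposited. Their difference did not reach that threshold. The share of all named genes with this pattern is not given here, so the count has no background. Turning the 1-week dye reversal breaks the pattern for each of these genes. Fbxo3, an F-box protein linked to inflammatory signalling, differed by -0.69 (means of 0.26 and -0.43, limma, unadjusted p = 0.0868). Fbxw9 differed by 0.51 (means of -0.39 and 0.12, limma, unadjusted p = 0.210), and its spots disagreed by up to 3.65 on an array. Ube2j1 differed by 0.48 (means of -0.32 and 0.17, limma, unadjusted p = 0.0956). Usp54 differed by -0.50 (means of 0.33 and -0.17, limma, unadjusted p = 0.127).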

How the results depend on the processing

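The 20 results of named genes that had an unadjusted p under 0.05 were recomputed 414 times in all: 301 values kept direction and side of the threshold, 111 kept only the direction and 2 reversed. The reversals were Ube2e1 after 1 week, at -0.060 with both dye-reversed arrays turned, and Ube2g2 over both times, at 0.083 with the spot nearest 0.
The count of genes with an unadjusted p under 0.05 (9 after 1 week, 1 after 6 weeks, 7 over both times, 3 for the difference) moved under several settings. With both reversed arrays turned it was 1 after 1 week (3.81% of all tests), 3 over both times (4.32%) and 1 for the difference (2.06%). With the 6-week reversal turned it was 0 after 6 weeks (3.06% of all tests) and 1 for the difference (3.29%). On the 4 unreversed arrays it was 2 after 6 weeks (4.10% of all tests) and 1 for the difference (3.21%). After 6 weeks it was 4 of 88 with the swap as separate replicates (5.09% of all tests) and 5 with a dye term (6.01%). It was 3 with the spot nearest 0 (4.20%) or without variance moderation (4.70%). It was 2 of 88 with quantile normalization (4.32%), named genes only (5.15% of 11138) or array weights (4.79%). Spots within 1 gave 2 of 37 (5.41%), beside 7.77% of 5625 genes. Spots within 0.5 gave 2 of 11 (18.2%), beside 9.99% of 2023 genes. The difference gave 0 with the spot nearest 0 (3.75% of all tests) or spots within 0.5 (9.44% of 2023 genes). Without moderation it gave 5 (4.15% of all tests). Spots within 0.5 left 11 genes and 4 counted after 1 week (20.4% of 2023 genes) and 4 over both times (19.0%). At a threshold of 0.01 the counts were 1, 0, 1 and 1, and the shares of all tests at that threshold are not given here. Leaving out 1 array other than that against 6-week control gave 5 to 9 after 1 week (4.89% to 7.03% of all tests). It gave 1 to 4 after 6 weeks (3.56% to 4.98%). Over both times it gave 5 to 10 (5.57% to 6.56%) and for the difference 2 to 3 (3.48% to 4.07%).
The 1-week median of -0.05 was 0.049 with both reversed arrays turned, 0.0099 with the spot nearest 0 and 0.037 with spots within 0.5, where the difference had a median of -0.15. Among agreeing spots, where 0 of 37 passed, 1 passed after 1 week with a dye term. Over both times 1 passed on unreversed arrays, 2 with a dye term and 2 at an adjusted p of 0.1. The shares of all genes with agreeing spots that passed under these settings are not given here, so the counts have no background. Leaving out 1 array gave 0 to 1 at 1 week and over both times. The E2 count of 1 sign (17 of 24) was 3 with signs turned, 6 with the spot nearest 0 and 18 to 20 with 1 array left out. Over the 88 genes (39) it was 16 (18.2%), 19 (21.6%) and 53 to 57 (60.2% to 64.8%). All named genes (30.5%) gave 26.0%, 26.1% and 49.8% to 57.2%. With 1 array left out only 2 arrays remain, so more genes have 1 sign. One sign on all 6 arrays (7 genes) was found for 5 with the 6-week reversal turned and 4 with both turned. Times that did not overlap (17 genes) were found for 10 and 2. The cause was not tested. No paired analysis was possible because the labels give the groups no shared replicate numbers.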
